A study of Cricetulus griseus with 9 samples.

Results

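The genes described here are candidates for regulation by microRNAs of the miR-29 family that act on histones or on transcription, namely Ezh2, Jarid2, Kdm5a, Kdm5b, Hdac4, Setdb1, Yy1 and Hbp1. They were chosen by name, as 8 mouse Ensembl identifiers, from a deposited table of 15557 genes. Of the 8, 7 were analysed here, and all 7 passed the filter on low values that left 9504 genes for testing. The identifier of Setdb1 (ENSMUSG00000015697), a methyltransferase for lysine 9 of histone H3, was dropped under the rule that chose the genes, and Setdb1 was not analysed here. Gene names are those given to the identifiers when the genes were chosen, because the files list identifiers alone.

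The miR-29 microRNAs have a seed in common, the stretch at the 5′ end that pairs with sites in the untranslated regions of target mRNAs, and they lower the stability or translation of those mRNAs. Chromatin regulators can in this way come under microRNA control, and Hdac4 and Yy1 have been described as miR-29 targets in mouse cells. Histone methyltransferases, demethylases and deacetylases add or remove the marks that set how readily a gene is transcribed. Yy1 and Hbp1 act with them as sequence-specific DNA-binding regulators.

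CHO-K1, an established line from Chinese hamster ovary, was transfected and its RNA sequenced in 3 groups of 3 libraries. The first group received pre-miR-29b-1 and the second pre-miR-29a, which are synthetic precursors that raise the microRNA they are named for. The third group received anti-miR-29a, an inhibitor that the submitters describe as blocking miR-29a and miR-29b-1 alike. All cells were exposed to Lipofectamine RNAiMAX for 48 h in medium with charcoal-stripped serum, so the carrier is common to the groups. Cells without a miR-29 reagent were not analysed here, and a difference between a pre-miR and anti-miR-29a can lie at either end.

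The series text speaks of separate transfection experiments without saying whether each held all 3 molecules. Where a molecule had an experiment to itself, the experiment and the group cannot be told apart. Nothing in the labels says that libraries within a group were grown as separate cultures, so the spread behind each p-value may be technical. Implied depth, read from the steps of low values in the unit that the FPKM were scaled by, was 18570000 to 20790000 reads with pre-miR-29b-1, 16590000 to 19000000 with pre-miR-29a and 15190000 to 17810000 with anti-miR-29a. Levels are FPKM, fragments per kilobase of gene model, with a library scaling that the sources used here do not name. The models hold coding sequence only, from 570 bases for Yy1 to 4908 for Kdm5a, and their completeness was not checked. Orders and ratios of different genes therefore hold for FPKM on these models. When limma weighted the libraries by their scatter around their group, replicate 1 of pre-miR-29a had the lowest weight of the 9, at 0.213. Replicate 3 of the same group had the highest, at 3.54. The mean correlation with the other libraries of the group was 0.9890, 0.9903 and 0.9898 for replicates 1 to 3 of pre-miR-29a. The order of the weights differs from the order of these correlations. The CHO-K1 label was not checked against marker genes, since the identifiers carry no names.

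With either pre-miR, 6 of the 7 genes (Jarid2, Hbp1, Hdac4, Kdm5b, Yy1 and Kdm5a) were lower than with anti-miR-29a, and Ezh2 was higher. Against anti-miR-29a, all 7 passed an adjusted p of 0.05 with pre-miR-29b-1, where 55.2% of all tested genes did, and all 7 passed with pre-miR-29a, where 58.4% did (limma on log2(FPKM + 1), Benjamini-Hochberg over 9504 genes). Lower calls made up 6 of 7 members with pre-miR-29b-1, beside 29.4% of all tested genes, and 6 of 7 with pre-miR-29a, beside 30.9%. The single higher call, Ezh2, stands beside 25.8% of tested genes called higher under pre-miR-29b-1 and 27.5% under pre-miR-29a. After quantile normalization the lower share of all tested genes was 26.0% for pre-miR-29b-1 and 26.2% for pre-miR-29a. The higher share was then 33.4% for pre-miR-29b-1 and 35.1% for pre-miR-29a. The members were chosen with results of these data known, so these counts describe them and do not test the group.

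The median log2 difference from anti-miR-29a over the 7 members was -0.51 under pre-miR-29b-1 and -0.44 under pre-miR-29a. Over all 9504 genes the median was -0.0057 under pre-miR-29b-1 and -0.016 under pre-miR-29a. Libraries of the groups compared did not overlap for any of the 7 members in either comparison, where 67.6% of all tested genes were without overlap for pre-miR-29b-1 and 62.2% for pre-miR-29a. The anti-miR-29a libraries are common to both comparisons, which are therefore not independent. In bulk RNA, a lower level in every cell and fewer cells that carry the transcript cannot be told apart.

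**Figure D1:**
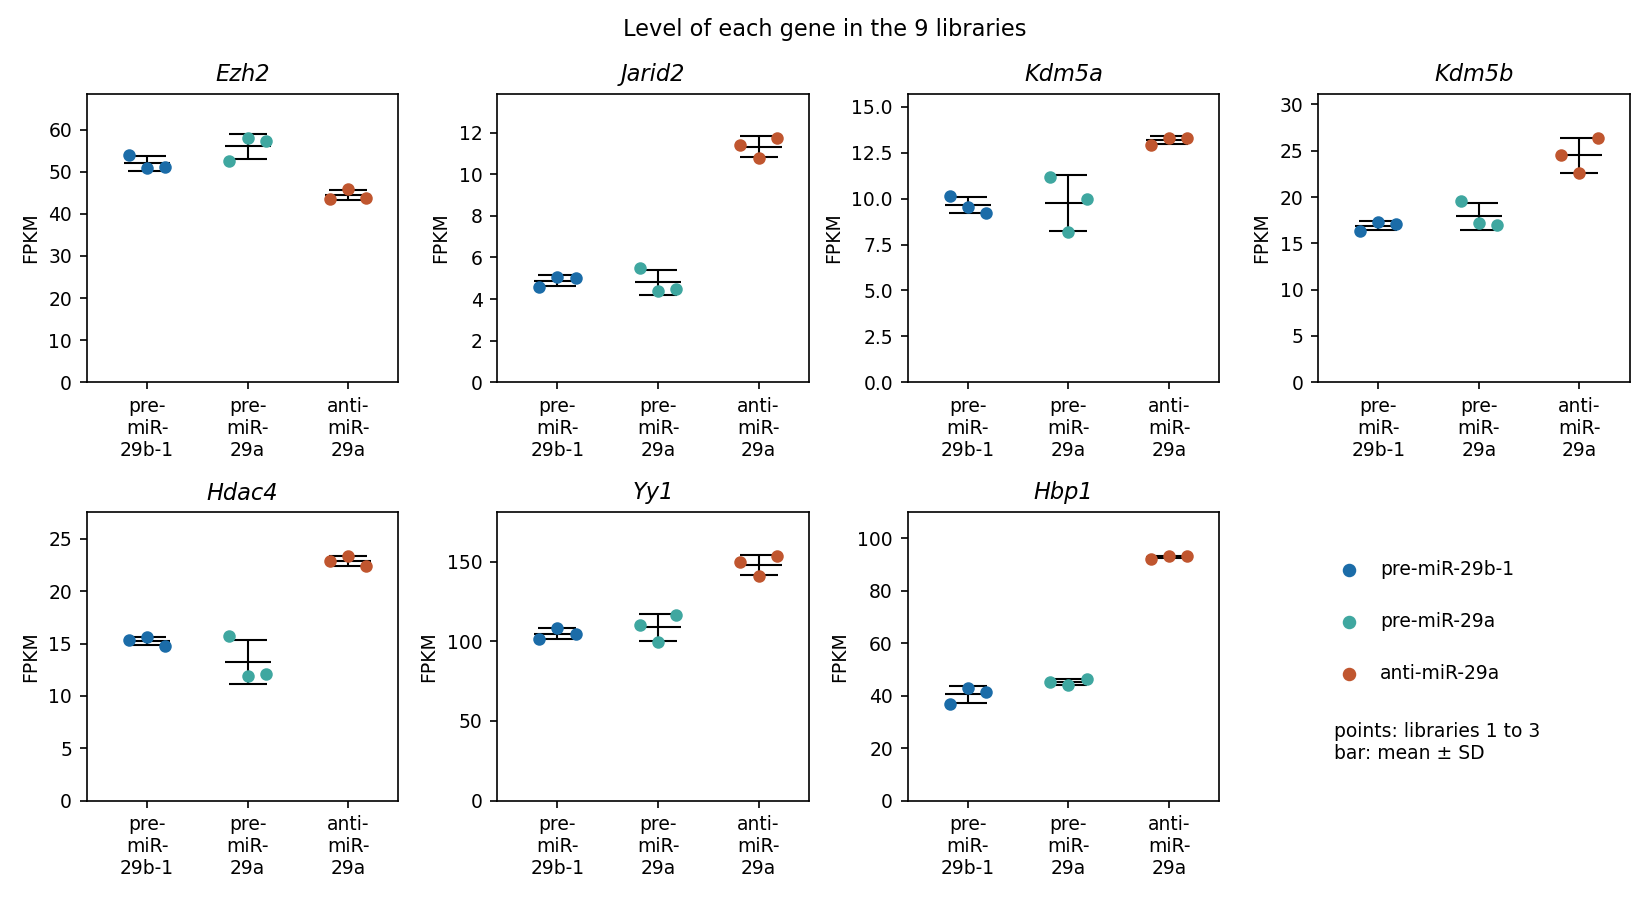
FPKM of Ezh2, Jarid2, Kdm5a, Kdm5b, Hdac4, Yy1 and Hbp1 (vertical axes from 0) in each library, in the groups pre-miR-29b-1, pre-miR-29a and anti-miR-29a. Points are libraries 1 to 3, bars are mean ± SD; the pre-miR points lie below all anti-miR-29a points for 6 genes and above them for Ezh2.

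Ezh2 and Jarid2 belong to Polycomb repressive complex 2, which methylates lysine 27 of histone H3 and keeps genes silent. Ezh2 is its catalytic subunit, and Jarid2 is an accessory subunit with a JmjC domain that lacks demethylase activity and helps bring the complex to chromatin. Their transcripts moved in opposite directions. Ezh2 stood at 54.0, 50.9 and 51.1 FPKM in the pre-miR-29b-1 libraries, at 52.7, 58.2 and 57.4 FPKM in those of pre-miR-29a, and at 43.6, 45.8 and 43.8 FPKM in those of anti-miR-29a. Each of the 6 pre-miR libraries was above each anti-miR-29a library. The log2 difference of Ezh2 from anti-miR-29a was 0.22 (SE 0.053, adjusted p 0.00545, limma) for pre-miR-29b-1 and 0.33 (SE 0.053, adjusted p 0.00048, limma) for pre-miR-29a. These are the smallest differences from anti-miR-29a among the 7 genes, at 1.17-fold for pre-miR-29b-1 and 1.26-fold for pre-miR-29a.

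Jarid2 had the lowest FPKM of the 7 genes in every group. It stood at 4.58, 5.04 and 5.02 FPKM in the pre-miR-29b-1 libraries, at 5.49, 4.40 and 4.50 FPKM in those of pre-miR-29a, and at 11.4, 10.8 and 11.8 FPKM in those of anti-miR-29a. The pre-miR libraries sit close together, far below every anti-miR-29a library, and the highest of them is replicate 1 of pre-miR-29a. Mean FPKM with pre-miR-29b-1 was 43.1% of that with anti-miR-29a, and with pre-miR-29a 42.3%. The log2 difference was -1.07 (SE 0.090, adjusted p 6.75e-06, limma) for pre-miR-29b-1 and -1.09 (SE 0.090, adjusted p 4.87e-06, limma) for pre-miR-29a. Adding 1 FPKM before the logarithm shrinks the difference of a gene this low, and with 0.1 FPKM added the values were -1.20 under pre-miR-29b-1 and -1.23 under pre-miR-29a. Jarid2 also rested on the fewest reads, an implied 274 to 768 per library, for which counting alone gives an SD of 3.61% to 6.05% of the value.

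Kdm5a and Kdm5b are paralogous demethylases that remove methyl groups from lysine 4 of histone H3, a mark of active promoters. Both were lower with the pre-miRs, by log2 differences between -0.51 and -0.41. Kdm5a stood at 10.1, 9.57 and 9.24 FPKM in the pre-miR-29b-1 libraries, at 11.2, 8.17 and 9.96 FPKM in those of pre-miR-29a, and at 12.9, 13.3 and 13.3 FPKM in those of anti-miR-29a. The anti-miR-29a libraries are nearly level, while the pre-miR-29a libraries spread over a wide range, with replicate 1 nearest to anti-miR-29a. Its log2 difference was -0.41 (SE 0.097, adjusted p 0.00497, limma) for pre-miR-29b-1 and -0.41 (SE 0.097, adjusted p 0.00516, limma) for pre-miR-29a. When 1 library was left out, the difference of Kdm5a under pre-miR-29a ran from -0.50, without replicate 1 of that group, to -0.29, without its replicate 2, and it was -0.28 after quantile normalization.

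Kdm5b stood at 16.3, 17.3 and 17.1 FPKM in the pre-miR-29b-1 libraries, at 19.6, 17.2 and 17.0 FPKM in those of pre-miR-29a, and at 24.5, 22.6 and 26.4 FPKM in those of anti-miR-29a. All pre-miR libraries were below all anti-miR-29a libraries, and replicate 1 of pre-miR-29a was again the highest of the pre-miR libraries. The log2 difference was -0.51 (SE 0.075, adjusted p 0.000279, limma) for pre-miR-29b-1 and -0.43 (SE 0.075, adjusted p 0.000713, limma) for pre-miR-29a. Kdm5b is the single gene of the 7 with 2 models in the annotation, which cover the same stretch of scaffold JH000127 with the same number of exons. How the authors' counting divided reads between these models is not given in the sources used here.

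Hdac4 encodes a class IIa histone deacetylase that shuttles between nucleus and cytoplasm and restrains MEF2 transcription factors. It stood at 15.4, 15.6 and 14.8 FPKM in the pre-miR-29b-1 libraries, at 15.7, 11.9 and 12.1 FPKM in those of pre-miR-29a, and at 22.9, 23.4 and 22.5 FPKM in those of anti-miR-29a. The pre-miR-29b-1 libraries lie within 1 FPKM of each other. Within pre-miR-29a, replicates 2 and 3 lie together below every pre-miR-29b-1 library and replicate 1 lies above all of them. The spread of Hdac4 over the pre-miR-29a libraries was 16.2% of the mean (SD, n = 3), against 2.72% with pre-miR-29b-1 and 2.01% with anti-miR-29a, while counting error was at most 3.98%. Its log2 difference was -0.56 (SE 0.093, adjusted p 0.000658, limma) for pre-miR-29b-1 and -0.76 (SE 0.093, adjusted p 7.43e-05, limma) for pre-miR-29a. When 1 library was left out, the difference under pre-miR-29a ran from -0.88, without replicate 1 of that group, to -0.69, without its replicate 2.

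Yy1 encodes a zinc finger protein that binds promoters and enhancers and can activate or repress, depending on its partners. It had the highest FPKM of the 7 genes in each group. Yy1 stood at 101.7, 108.3 and 104.5 FPKM in the pre-miR-29b-1 libraries, at 110.4, 99.7 and 116.3 FPKM in those of pre-miR-29a, and at 149.4, 140.9 and 153.5 FPKM in those of anti-miR-29a. The groups given a pre-miR lie clearly below the anti-miR-29a libraries and overlap each other. The log2 difference was -0.49 (SE 0.063, adjusted p 0.000107, limma) for pre-miR-29b-1 and -0.44 (SE 0.063, adjusted p 0.000193, limma) for pre-miR-29a. The Yy1 model has 570 coding bases, the fewest of the 7, and its values rested on an implied 1079 to 1558 reads per library.

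Hbp1 encodes an HMG-box repressor that binds the retinoblastoma protein and restrains cell cycle genes and Wnt signalling. It stood at 37.0, 43.0 and 41.5 FPKM in the pre-miR-29b-1 libraries, at 45.2, 44.2 and 46.2 FPKM in those of pre-miR-29a, and at 92.2, 93.0 and 93.2 FPKM in those of anti-miR-29a. The anti-miR-29a libraries agree closely, and every pre-miR library lies far below them. Mean FPKM was 43.6% of the anti-miR-29a mean under pre-miR-29b-1 and 48.7% under pre-miR-29a. The log2 difference was -1.18 (SE 0.058, adjusted p 2.07e-07, limma) for pre-miR-29b-1 and -1.02 (SE 0.058, adjusted p 4.19e-07, limma) for pre-miR-29a. By the estimated difference, Hbp1 and Jarid2 were the members past a 2-fold fall. That makes 2 of 7 in either comparison, beside 3.45% of all tested genes under pre-miR-29b-1 and 4.26% under pre-miR-29a. The 95% interval lay wholly past 2-fold only for Hbp1 under pre-miR-29b-1 (-1.31 to -1.05). It was -1.15 to -0.89 for Hbp1 under pre-miR-29a. For Jarid2 it was -1.27 to -0.87 under pre-miR-29b-1 and -1.29 to -0.89 under pre-miR-29a. The count of 2 of 7 depended on the setting. For pre-miR-29b-1 it was 1 of 7 with a pseudocount of 5 FPKM, where Jarid2 stood at -0.72, beside 2.34% of tested genes. For pre-miR-29a it was 0 of 7 with that pseudocount, beside 2.77% of tested genes, and 0 of 7 after quantile normalization, where Jarid2 stood at -0.99 and Hbp1 at -0.95, beside 3.45%.

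**Figure D2:**
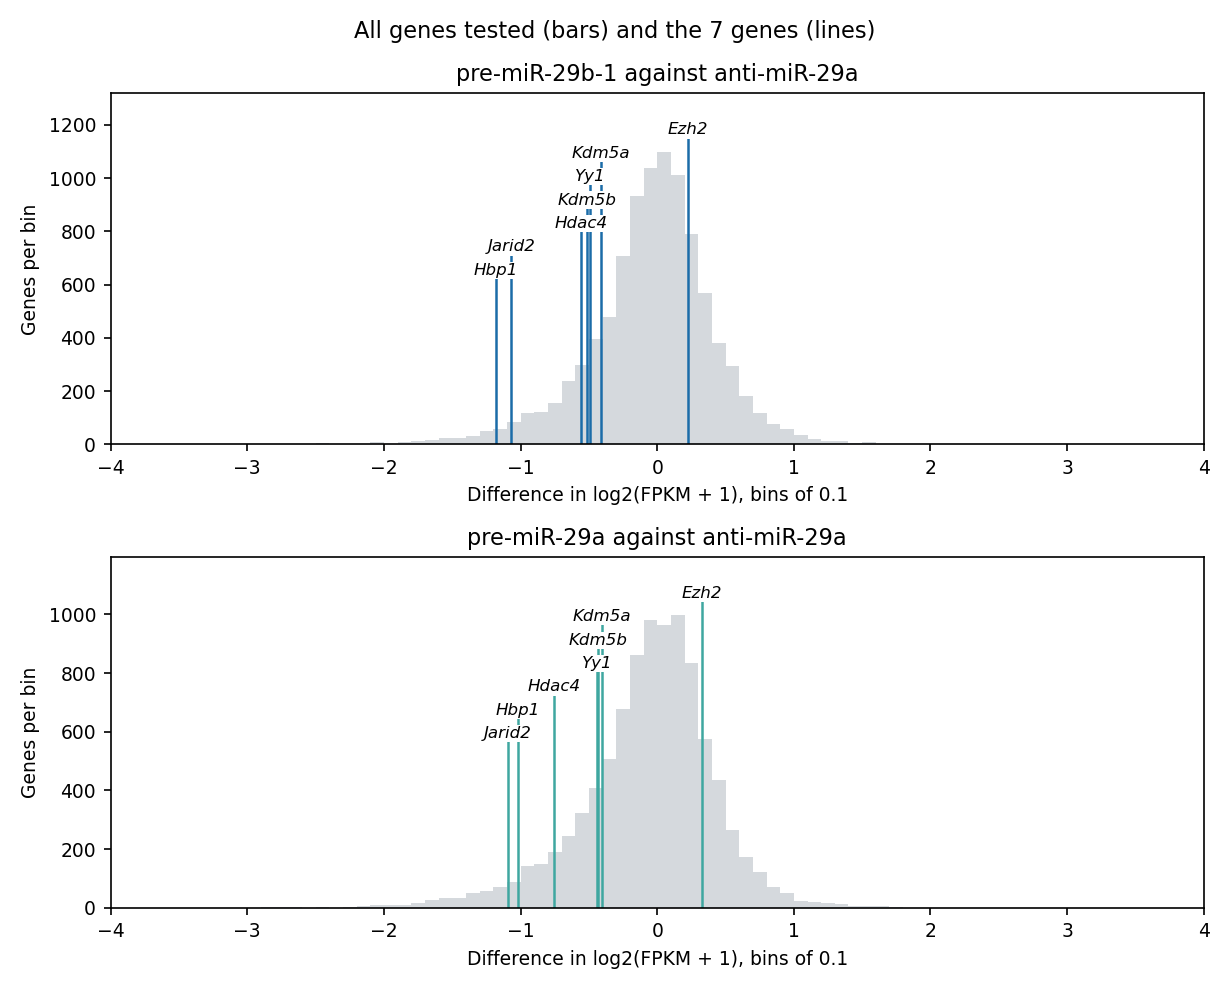
Number of genes (vertical axis) by difference in log2(FPKM + 1) from anti-miR-29a (horizontal axis, bins of 0.1) for all 9504 tested genes, with pre-miR-29b-1 above and pre-miR-29a below. Lines mark the 7 genes (their heights carry no value): Hbp1 and Jarid2 lie in the lower tail, Hdac4, Kdm5b, Yy1 and Kdm5a on the lower flank and Ezh2 on the upper side.

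Set among all tested genes by log2 difference from anti-miR-29a with pre-miR-29b-1, Hbp1 was the 211th lowest and Jarid2 the 287th lowest of 9504. With pre-miR-29a, Jarid2 was the 345th lowest and Hbp1 the 411th lowest. Hdac4 had 11.5% of genes below it under pre-miR-29b-1 and 8.42% under pre-miR-29a. Kdm5b, Yy1 and Kdm5a had between 13.1% and 17.0% of genes below them with pre-miR-29b-1, and between 17.9% and 19.5% with pre-miR-29a. These falls therefore sit on the flank of the distribution and not in its tail. Ezh2 had 75.0% of genes below it under pre-miR-29b-1 and 83.0% under pre-miR-29a, so its rise was moderate for these libraries.

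The microRNAs of the pre-miR groups have the family seed in common and differ in the rest of their sequence, and these groups were compared directly. None of the 7 members passed an adjusted p of 0.05 (limma), where 0.0105% of all tested genes did. At an unadjusted p under 0.05 (limma) the count was 1 of 7, Hbp1, beside 16.5% of all tested genes. Hbp1 was lower in the pre-miR-29b-1 libraries by a log2 difference of -0.16 (95% interval -0.29 to -0.03, adjusted p 0.253, limma). It was also the single member whose libraries did not overlap between these groups, beside 18.9% of all tested genes without overlap.

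Hdac4 had the widest gap between the pre-miRs, at 0.20 on the log2 scale (95% interval -0.01 to 0.41, adjusted p 0.309 by limma), higher in the pre-miR-29b-1 libraries. Hdac4 passed the threshold under 2 of the 19 alternatives. Without replicate 1 of pre-miR-29a the difference was 0.32 (adjusted p 0.0202, limma), and 14.4% of all tested genes then passed. With all libraries kept but weighted by their scatter it was 0.31 (adjusted p 0.00359, limma), and 38.2% of all tested genes passed. For Ezh2 the difference, pre-miR-29b-1 minus pre-miR-29a, was -0.11 (95% interval -0.23 to 0.01, adjusted p 0.344, limma). For Jarid2 the 95% interval of the difference ran from -0.18 to 0.22, for Kdm5a from -0.23 to 0.21, for Kdm5b from -0.24 to 0.09 and for Yy1 from -0.19 to 0.09. In the unweighted fit of all 9 libraries, no interval bound of the 7 members was farther from 0 than 0.41, the upper bound of Hdac4. That is a 1.33-fold difference in FPKM + 1, and it does not cover the alternatives.

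**Figure D3:**
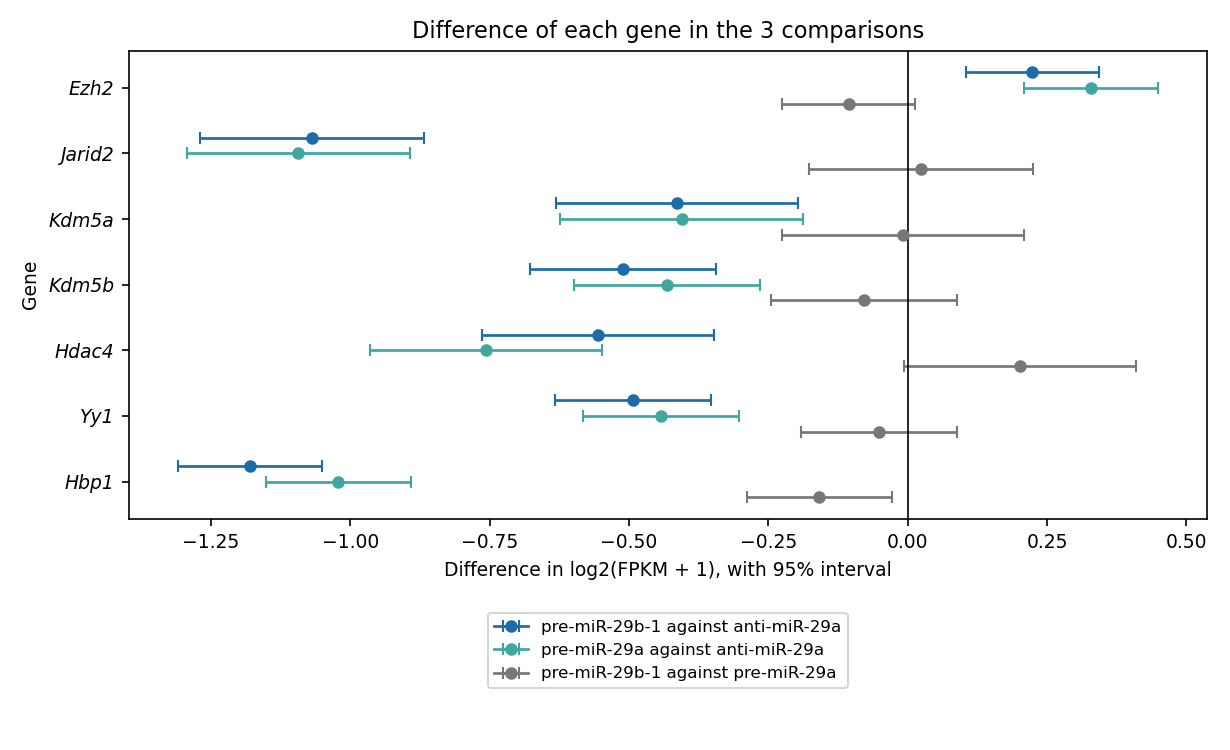
Difference in log2(FPKM + 1) (horizontal axis) for each of the 7 genes in the comparisons of pre-miR-29b-1 with anti-miR-29a, of pre-miR-29a with anti-miR-29a and between the pre-miRs (pre-miR-29b-1 minus pre-miR-29a); bars are 95% intervals from limma. Intervals against anti-miR-29a exclude 0 for all 7 genes, while those between the pre-miRs include 0 for all but Hbp1.

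Replicate 1 of pre-miR-29a was the library of its group nearest to the anti-miR-29a mean for 5 of the 7 members, Hdac4, Kdm5a, Kdm5b, Jarid2 and Ezh2. The same held for 44.3% of all tested genes. Within pre-miR-29b-1, replicate 2 was nearest for 6 of the 7 members and for 28.8% of all tested genes.

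By level per length, the order in the pre-miR-29b-1 libraries, and likewise in those of pre-miR-29a, was Yy1, Ezh2, Hbp1, Kdm5b, Hdac4, Kdm5a and Jarid2, from highest to lowest. With anti-miR-29a, Hbp1 stood above Ezh2, and the rest of the order was the same. Neighbours in these orders did not overlap in their libraries, except Kdm5b and Hdac4 with anti-miR-29a. Yy1 exceeded 78.2% of tested genes in mean level under pre-miR-29b-1, 78.7% under pre-miR-29a and 84.0% under anti-miR-29a. Jarid2 exceeded 9.07% of tested genes under pre-miR-29b-1, 9.63% under pre-miR-29a and 19.2% under anti-miR-29a, so it was a low transcript throughout.

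Ratios of 2 genes within a library do not depend on how libraries were scaled. These ratios were chosen after the values were seen and are given as a description. The ratio of Ezh2 to Jarid2, the catalytic and the accessory subunit, was 11.8, 10.1 and 10.2 under pre-miR-29b-1, 9.60, 13.2 and 12.8 under pre-miR-29a and 3.82, 4.24 and 3.73 under anti-miR-29a. Every pre-miR library thus had a higher ratio than every anti-miR-29a library, which already follows from the levels of Ezh2 and Jarid2. The ratio of Ezh2 to Hbp1 averaged 1.29 ± 0.148 under pre-miR-29b-1, 1.24 ± 0.076 under pre-miR-29a and 0.479 ± 0.012 under anti-miR-29a (SD, n = 3 each). It was above 1 in each pre-miR library and below 1 in each anti-miR-29a library. That it did not overlap between them follows from the levels of Ezh2 and Hbp1 as well.

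The ratio of Yy1 to Hbp1, the DNA-binding regulators, averaged 2.60 ± 0.134 under pre-miR-29b-1, 2.40 ± 0.136 under pre-miR-29a and 1.59 ± 0.070 under anti-miR-29a (SD, n = 3 each). Both genes were lower with the pre-miRs, and the ratio shows that Hbp1 was lower by more. The paralogues Kdm5b and Kdm5a kept overlapping ratios across the groups, at 1.76 ± 0.125 under pre-miR-29b-1, 1.85 ± 0.218 under pre-miR-29a and 1.86 ± 0.142 under anti-miR-29a (SD, n = 3 each).

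**Figure D4:**
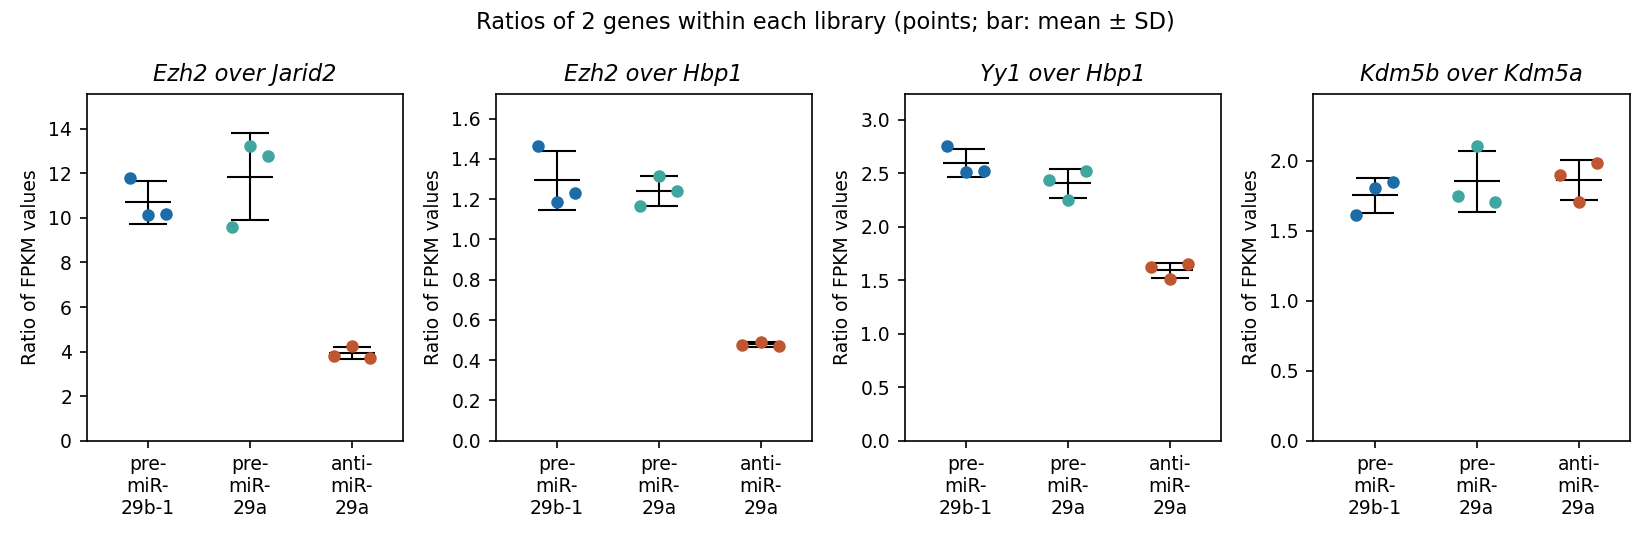
Ratio of FPKM values of 2 genes within each library (vertical axes from 0) in the groups pre-miR-29b-1, pre-miR-29a and anti-miR-29a; points are libraries 1 to 3 and bars mean ± SD. Ratios of Ezh2 to Jarid2, Ezh2 to Hbp1 and Yy1 to Hbp1 are higher in every pre-miR library than in any anti-miR-29a library, and ratios of Kdm5b to Kdm5a overlap. For the ratios with Ezh2 this follows from the levels of the genes.

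On the log2(FPKM + 1) scale, Hbp1 had the most negative and Ezh2 the most positive mean difference from anti-miR-29a. With 0.1 FPKM added instead of 1, and by the ratio of mean FPKM, Jarid2 fell further than Hbp1 in both comparisons, though by little under pre-miR-29b-1, so the choice of Hbp1 rests on that scale. Other genes were ranked by the likeness of their log2 levels to Hbp1 and to Ezh2 over the 9 libraries. Most like Hbp1 were ENSMUSG00000019916, with a Pearson correlation of 0.997, and ENSMUSG00000024817, also 0.997. ENSMUSG00000019916 averaged 195.9 ± 4.99 FPKM under pre-miR-29b-1, 218.3 ± 6.08 FPKM under pre-miR-29a and 368.3 ± 1.43 FPKM under anti-miR-29a (SD, n = 3 each). It was picked for its likeness to Hbp1, so the shared order of the groups is no separate observation. Most like Ezh2 were ENSMUSG00000050555 and ENSMUSG00000032112, each with a correlation of 0.998. ENSMUSG00000050555 averaged 42.5 ± 3.08 FPKM under pre-miR-29b-1, 51.5 ± 5.92 FPKM under pre-miR-29a and 27.5 ± 2.22 FPKM under anti-miR-29a. These points share the step between the pre-miR and the anti-miR-29a libraries, and such correlations were common. Of 8617 genes compared, 882 had a correlation over 0.95 with Hbp1 and 254 with Ezh2.

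On the hamster assembly CriGri_1.0, the models of the 7 genes each lie on a scaffold of their own and share no exon bases with another gene. Ezh2 (ENSMUSG00000029687) lies on JH000059 from 1298428 to 1343249 (minus strand, 19 coding exons), and Jarid2 (ENSMUSG00000038518) on JH000030 from 29287 to 125282 on the plus strand with 17. Kdm5a (ENSMUSG00000030180) lies on JH000208 from 1817635 to 1884594 and Kdm5b (ENSMUSG00000042207) on JH000127 from 423600 to 469923, both on the plus strand with 27 coding exons. Hdac4 (ENSMUSG00000026313) lies on JH000937 from 43601 to 140084 (minus strand, 24 coding exons). Yy1 (ENSMUSG00000021264) lies on JH000414 from 1067680 to 1077465 with 4 coding exons and Hbp1 (ENSMUSG00000002996) on JH001586 from 284808 to 303181 with 9, both on the plus strand. The models hold coding sequence only, so the untranslated regions in which miR-29 sites would lie were not examined.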

How the data were processed

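Per the labels' protocols, 2 µg of total RNA per sample went into a stranded poly(A) library kit, sequenced on a NextSeq500 in single-read mode for 75 to 76 cycles. The authors deposited FPKM per gene and library. Per the submitters' processing notes, FastQC, TopHat2 2.0.13 and Cuffnorm were used. The sources used here give no library scaling, strand setting or filter. Mouse Ensembl release 66 proteins placed on CriGri_1.0 serve as gene models, per the file headers, and exon starts and ends were taken from that deposited annotation. Model lengths were multiples of 3 in 99.9% of cases, so they are coding lengths. A RefSeq table of 32251 hamster genes (assembly CriGri-PICRH-1.0) matched 0 of the 15557 identifiers, so related genes of these pathways, listed by symbol, were not reported.

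Groups were taken from the sample labels. Genes averaging 1 FPKM or more were tested on log2(FPKM + 1) with limma 3.58.1 (R 4.3.3), in 1 fit of all 9 libraries with a term per group, moderated variances with a trend, two-sided tests, Benjamini-Hochberg adjustment over 9504 genes and a threshold of 0.05. Fold changes on this scale understate the change of low genes. In long genes (at least 3000 coding bases) with 1 model, 99.1% to 100% of low values (5 reads or fewer) came within 0.2 reads of a whole number, which gave the implied reads; these and the counting errors made from them cover counting only. The 19 alternatives changed the pseudocount, filter, scaling, variance model, library weights, libraries in the fit and the replicate block, or left out each library. Genes to name were all members, plus the 2 identifiers most correlated with the member of the most negative and the most positive difference, among genes of at least 5 FPKM. The members and lists were chosen with earlier results of these data known.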

Additional observations from a re-analysis of the deposited data

How the results depend on the processing

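Against anti-miR-29a, all 7 members passed the threshold under each of the 19 alternatives, in 133 of 133 values per comparison. Adjusted p was at most 0.0244 for pre-miR-29b-1 and 0.0194 for pre-miR-29a (limma). All members kept their direction, but as their libraries did not overlap, only the changes of scaling could have reversed it. The filters, the variance model, the replicate block and the group not compared left the differences themselves as they were. Under the same alternatives, 40.6% to 68.5% of all tested genes passed for pre-miR-29b-1 and 42.7% to 71.4% for pre-miR-29a. Between the pre-miRs the results depended on the setting. Over all genes, 1 passed, but 0 without moderation of the variances, 0 with only the groups compared, 3627 with array weights and 184 with the replicate block, and 1 to 1370 when 1 library was left out. Of the members 0 passed, but 3 with array weights, namely Hdac4 (0.31), Ezh2 (-0.15) and Hbp1 (-0.14), and 0 to 1 when 1 library was left out, with Hdac4 called without pre-miR-29a replicate 1. Uncalled differences near 0 changed sign. For Jarid2 (0.02 with all libraries) the value was -0.085 with quantile normalization, -0.024 without pre-miR-29a replicate 2 and -0.011 without replicate 3, over a range of -0.024 to 0.11 when 1 library was left out. For Kdm5a (-0.01) it was 0.019 without pre-miR-29b-1 replicate 3, 0.086 without pre-miR-29a replicate 1 and 0.0086 without pre-miR-29a replicate 3, over a range of -0.12 to 0.086 when 1 library was left out. The cause was not tested. The replicate number as a block changed no call of a member. Deviations from the group mean correlated between libraries of the same number at r of -0.018 to 0.30, over 0.1 in 6 of 9 pairs. In 13 of 18 checks a library correlated best with its own number, each time out of the 3 libraries of another group. These values do not settle whether the numbers pair libraries.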
